A study of Mus musculus with 24 samples.

Results

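The quadriceps of BXD-67 mice with Lama2-related congenital muscular dystrophy was compared with the quadriceps of wild-type BXD-67 mice across all genes. The 6 libraries named for strain 67 were taken from the 24 of the series, 3 of wild-type mice (WT, libraries 7, 8 and 9) and 3 of mice that carry a Lama2 mutation (CMD, libraries 10, 11 and 12). By name BXD-67 belongs to the recombinant inbred strains bred from B6 and D2, and the series pairs the same groups on B6, D2 and BXD-87 (87). All mice were 25 weeks old, and the left quadriceps was snap frozen, so the RNA is that of the whole muscle with its connective tissue, vessels, nerve and immune cells. WT mouse 7 was male and the other 5 mice of 67 were female, both by label and by the 4184 reads of Y-linked genes in library 7 against at most 6 in each of the others. The labels give neither the allele of the Lama2 mutation nor the colony of the WT mice. Within each group, values are given below in the order of the library numbers, as CPM, exon reads relative to library size after scaling between libraries. Fold changes are fitted on the log2 scale with a term for sex, so they need not equal the ratio of the printed means.

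Laminin-211, which holds the α2 chain encoded by Lama2, is the main laminin of the basement membrane around adult muscle fibres. It links the extracellular matrix to α-dystroglycan and to integrin α7β1 in the fibre membrane. Without it fibres are fragile, die and are replaced by fibres built from satellite cells, and the muscle comes to hold inflammatory cells and fibrous tissue. Peripheral nerve also needs laminin-211, since Schwann cells use it to sort and myelinate axons. Fibre type is set by which myosin heavy chain a fibre makes, and Myh4, Myh1, Myh2 and Myh7 mark fibres in order from fast and glycolytic to slow and oxidative.

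Total exon reads ran from 35991630 to 43332790 per library, and from 15617 to 16145 genes had reads. Of 181 genes whose level separates all B6 from all D2 libraries, 120 were nearer to B6 in all 6 libraries of 67, 2 were nearer to D2 in all 6, and for 54 the libraries of a group lay on both sides. Some of these genes, among them Sycp1 and Grm2, had few reads in 67, so the side they fall on is uncertain. These levels did not show the fixed mosaic of both parents that the strain name implies, but they are no test of it, and genotypes were not tested. The WT and CMD libraries stood apart as wholes. On the log2 CPM of the genes tested, Pearson's r across genes was 0.986 to 0.991 between WT libraries, 0.984 to 0.988 between CMD libraries and 0.948 to 0.962 between a WT and a CMD library. Genes are not independent, so these values describe the libraries and carry no test. Unless another analysis is named, the p-values below rest on the spread between mice within groups over all 18 libraries fitted. These include B6 and the other BXD strain but not D2, so the spread is not that of the 67 mice alone. Each group has 3 mice.

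Lama2 itself did not pass the test in 67. It stood at 27.8, 27.1 and 23.6 CPM in WT and 28.9, 19.5 and 33.3 CPM in CMD. CMD library 11 was the lowest and CMD library 12 the highest of the 6, so the groups overlapped (log2 fold change 0.16 ± 0.19 (SE), adjusted p = 0.594). Within B6 the fitted CMD change of Lama2 was -1.13 (adjusted p = 0.00234) and within 87 it was -0.97 (adjusted p = 0.00312). The CMD effect in 67 minus that in B6 was 1.28 ± 0.29 (SE) with an adjusted p of 0.294, and minus that in 87 it was 1.12 ± 0.28 (SE) with an adjusted p of 0.0543, so neither difference passed. Lama2 was examined as the mutated gene, yet these p-values are adjusted over all genes tested. Both differences were large beside their SE, so not passing does not show that the strains had equal effects. In 67 the fitted change was 0.16, with no decrease like the -1.13 of B6 or the -0.97 of 87. Why was not tested. The allele is not given, so the transcript level of Lama2 gives no check of the 67 labels.

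Of 14503 genes tested with edgeR's quasi-likelihood test, 1868 (12.9%) rose and 1370 (9.45%) fell in 67 CMD muscle at a Benjamini-Hochberg adjusted p below 0.05, together 3238 genes (22.3%). All 3 CMD libraries lay above all 3 WT libraries for 3322 genes (22.9%) and below them for 3105 genes (21.4%). The median fitted log2 fold change of all genes was 0.00944. The number of calls depends on the few mice. It fell to 1013 raised and 674 lowered without WT library 9, and to 1229 and 836 without WT library 8. Without CMD library 10 there were 1245 raised genes, and 833 and 858 lowered genes were called without CMD libraries 11 and 12. In all 6 analyses that left out 1 library, 832 of the raised and 509 of the lowered genes were called again, and no gene was called in the opposite direction. Counts for the gene lists below are to be read against the 12.9% raised and 9.45% lowered of all genes tested. For gene lists below, the numbers in parentheses after a count are the counts without the library named or under another analysis, given where they differ from it by more than 1.5 times. These analyses used library totals or RLE size factors for scaling, no sex term, female libraries only, the 6 libraries of 67 alone, or DESeq2. Scaling mattered for the balance of calls. With library totals in place of the trimmed mean of M-values (TMM), the median of all genes moved to 0.271, and 3203 genes rose and 479 fell, so that 87.0% of calls were rises against 57.7% with TMM. Changes below are relative to the TMM scale. In whole muscle, a lower level of a cell type's genes can come from fewer such cells or from less RNA per cell, and the 2 cannot be told apart.

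Myosin heavy chain transcripts went from nearly pure Myh4 to a mixture with Myh1 and Myh2. In TPM, the authors' unit that corrects for transcript length, Myh4 made up 99.8, 98.7 and 98.1% of the summed TPM of 6 myosin heavy chains in the WT libraries. In the CMD libraries it made up 56.9, 56.8 and 29.4%. Myh1, the next isoform in that order, made up 0.126, 1.2 and 1.56% in WT and 33, 30.1 and 51% in CMD, and Myh2 made up 0.0167, 0.0659 and 0.292% and 9.56, 12.9 and 19.3%. Every CMD library held larger shares of Myh1 and Myh2 than any WT library, and CMD library 12 held the largest shares of both and the smallest share of Myh4. The summed TPM of the 6 genes was also lower, from 24650 to 27110 TPM in WT and from 12610 to 15530 TPM in CMD. Slow Myh7 remained a trace, with 0.39, 0.0204 and 0.0331% in the CMD libraries.

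**Figure D1:**
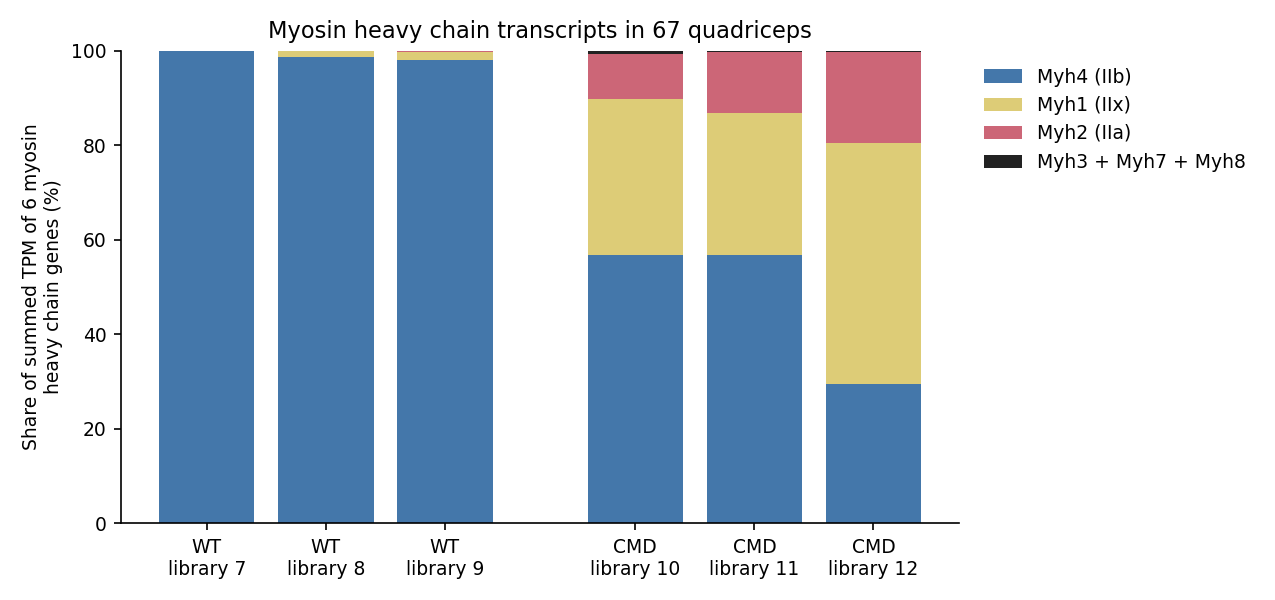
Stacked bars show the share of each of 6 myosin heavy chain genes in their summed TPM (%, vertical axis) in each library of 67 (horizontal axis), with WT libraries 7 to 9 beside CMD libraries 10 to 12. Myh4 fills nearly all of each WT bar, and Myh1 and Myh2 take a large part of each CMD bar, most in library 12.

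Single genes show the same split. Myh4 stood at 76333, 75946 and 82383 CPM in WT and 23212, 20073 and 12757 CPM in CMD, without overlap, and fell (log2 fold change -1.99 ± 0.29 (SE), adjusted p = 4.62e-04). Myh1 stood at 101, 976 and 1381 CPM in WT and 14226, 11251 and 23337 CPM in CMD and rose (log2 fold change 4.19 ± 0.90 (SE), adjusted p = 0.00485). WT library 7 was the lowest of all for Myh1, and CMD library 12 the highest. Myh2 stood at 12.9, 51.3 and 248 CPM in WT and 3948, 4622 and 8444 CPM in CMD (log2 fold change 5.4 ± 1.4 (SE), adjusted p = 0.0141), with no overlap. Its call was lost without WT library 7 or 8, where the adjusted p reached 0.0602.

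Of the 12 slow-fibre genes, 10 rose and none fell, and their median log2 fold change was 5.45 against 0.00944 over all genes tested. Myoz2 encodes myozenin 2 (calsarcin 1), a Z-disc protein of slow fibres and heart that binds calcineurin. It stood at 0.183, 0.296 and 2.32 CPM in WT and 210.1, 191 and 387 CPM in CMD (log2 fold change 7.67 ± 1.28 (SE), adjusted p = 0.00107). The slow troponins went with it. Tnni1 stood at 0.626, 0 and 0.158 CPM in WT and 51.7, 23.3 and 40.1 CPM in CMD (log2 fold change 7.45 ± 0.98 (SE), adjusted p = 2.28e-04). Tnnt1 stood at 1.56, 0.269 and 0.29 CPM in WT and 108, 51.3 and 66.1 CPM in CMD (log2 fold change 6.88 ± 1.17 (SE), adjusted p = 0.00121). Tnnc1 stood at 0.522, 0.296 and 0.0792 CPM in WT and 39.7, 8.31 and 15 CPM in CMD (log2 fold change 6.05 ± 0.84 (SE), adjusted p = 3.38e-04). For each of these 4 genes the lowest CMD library was far above the highest WT library. Atp2a2, the slow and cardiac SERCA pump, rose by 2.26, Casq2, the cardiac calsequestrin, by 2.82, and Myl6b, a slow myosin light chain, by 1.02 on the log2 scale. Myh7, the slow myosin heavy chain, stood at 2.61, 0 and 0.158 CPM in WT and 169, 7.64 and 15.2 CPM in CMD, with CMD library 10 far above the other CMD libraries (log2 fold change 7.65 ± 1.93 (SE), adjusted p = 0.0122). Its call was lost without WT library 8 or 9 or CMD library 10, where the adjusted p reached 0.0668. The ventricular light chains Myl2 and Myl3 did not pass, with 5.63 (adjusted p = 0.0607) and 5.27 (adjusted p = 0.0668). Of the 10 raised slow genes 7 were called in all 6 analyses that left out 1 library.

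Fast-fibre genes mostly went down. Of 15 in the list 9 fell, 2 rose (Myh1 and Myh2) and the median was -0.91. Actn3, the fast-fibre α-actinin, stood at 13798, 13096 and 12773 CPM in WT and 4631, 4354 and 3500.0 CPM in CMD and fell (log2 fold change -1.61 ± 0.30 (SE), adjusted p = 0.00228). Mybpc2, fast myosin-binding protein C, stood at 7491, 9246 and 8425 CPM in WT and 2953, 2571 and 2119 CPM in CMD and fell (log2 fold change -1.68 ± 0.26 (SE), adjusted p = 6.44e-04). Neither gene overlapped between groups. The fast troponin genes Tnnt3, Tnnc2 and Tnni2 fell by 0.91, 0.92 and 0.79 on the log2 scale, the fast SERCA pump Atp2a1 fell by 0.95 and myozenin 1 (Myoz1) by 0.91. The fast light chains Mylpf and Myl1 did not pass, with -0.58 (adjusted p = 0.0565) and -0.25 (adjusted p = 0.456). Of the 9 lowered fast genes 8 were called in all 6 left-out analyses, and without WT library 7 or WT library 8 only 1 gene of the list was raised.

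Sarcomere genes of developing muscle rose. Of 8 tested, 5 rose and 2 fell (1 without WT library 8 or 9 or CMD library 10, 11 or 12 and 1 with library totals), with a median of 2.46. Myh3, the embryonic myosin heavy chain, is a standard mark of regenerating fibres and stood at 0.104, 0.0269 and 0.422 CPM in WT and 48.9, 27 and 79.5 CPM in CMD. Perinatal Myh8 stood at 4.02, 7.0 and 10.2 CPM in WT and 47.5, 46.2 and 89.2 CPM in CMD. All 3 CMD libraries were above all 3 WT libraries for both genes (log2 fold change 8.04 ± 0.97 (SE), adjusted p = 1.41e-04 for Myh3, and log2 fold change 3.09 ± 0.48 (SE), adjusted p = 6.76e-04 for Myh8). In CMD muscle both nonetheless made up under 1% of the 6 myosin transcripts, Myh3 0.12, 0.0762 and 0.183% and Myh8 0.0889, 0.0999 and 0.157%. Tnnt2, the cardiac troponin T that immature skeletal muscle also makes, stood at 0.652, 0.484 and 0.528 CPM in WT and 14.4, 9.09 and 26.9 CPM in CMD (log2 fold change 4.95 ± 0.57 (SE), adjusted p = 1.03e-04). Mybpc1, slow myosin-binding protein C, rose by 2.7 on the log2 scale. Mybph, a relative of the myosin-binding proteins, stood at 686, 843 and 1151 CPM in WT and 267, 265 and 158 CPM in CMD, so it fell without overlap (log2 fold change -2.09 ± 0.51 (SE), adjusted p = 0.0106).

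Among 18 myogenic regulators and fusion genes, 5 rose (9 with library totals) and 1 fell (2 without CMD library 12 and 2 in 67 alone), with a median of 0.31. Myog, Myf6, Mymk, Mymx and Ncam1 rose and Mstn fell. Mymx and Mymk encode myomixer and myomaker, the 2 membrane proteins that fuse myoblasts. Mymx had 3 reads in all WT libraries together and 726 in all CMD libraries, a ratio of 210.4 after scaling to library size with a 95% counting interval from 71.71 to 1023 (adjusted p = 1.02e-04, edgeR's quasi-likelihood test). Mymk stood at 0, 0.135 and 0.29 CPM in WT and 9.38, 8.04 and 8.49 CPM in CMD (log2 fold change 5.88 ± 0.95 (SE), adjusted p = 8.69e-04). Neither fusion gene overlapped between groups. Myog, the transcription factor of terminal differentiation, stood at 3.6, 10.5 and 9.76 CPM in WT and 35.8, 33.6 and 52.5 CPM in CMD (log2 fold change 2.25 ± 0.39 (SE), adjusted p = 0.00144). Ncam1, an adhesion molecule of satellite cells, new fibres and denervated fibres, stood at 4.49, 6.46 and 5.65 CPM in WT and 22.3, 21.7 and 38.3 CPM in CMD (log2 fold change 2.19 ± 0.28 (SE), adjusted p = 1.96e-04). The satellite-cell factors Pax7 and Myf5 did not pass, with -0.61 (adjusted p = 0.353) and -0.48 (adjusted p = 0.353), and neither did Myod1 with 1.18 (adjusted p = 0.080).

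**Figure D2:**
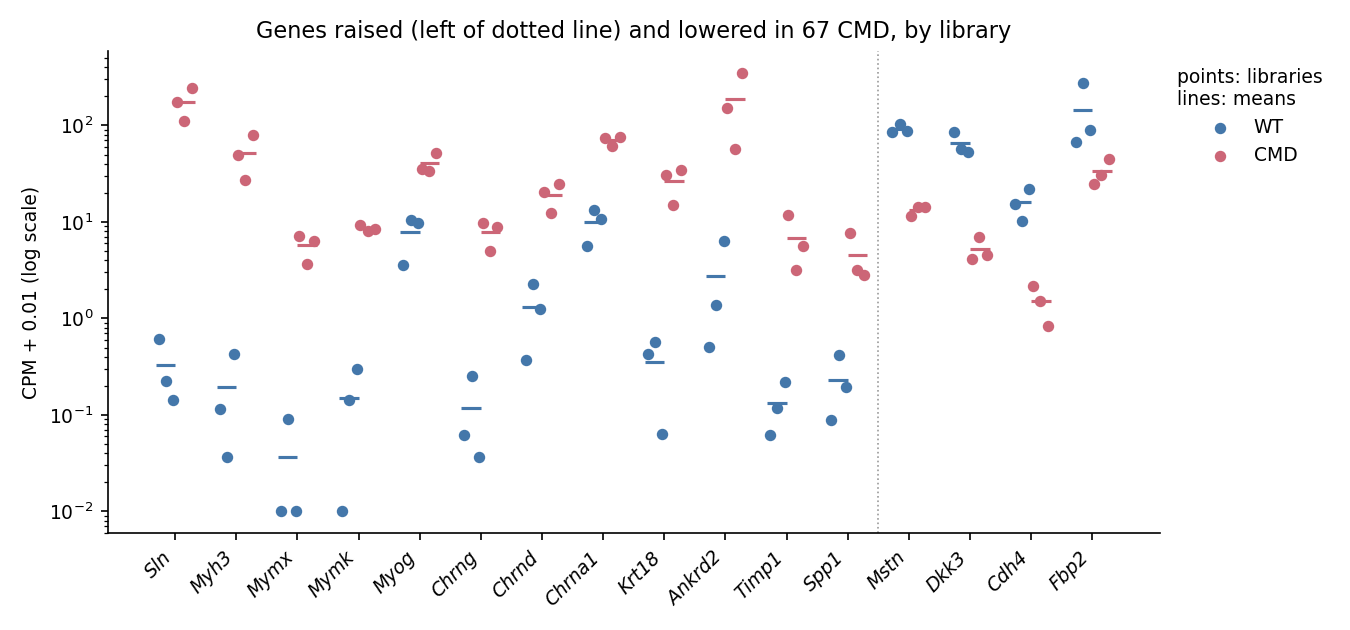
Points show the CPM (log axis) of selected genes in each of the 6 libraries of 67, WT and CMD in separate colours, with a line at each group's mean. The CMD points lie above the WT points for the 12 genes left of the dotted line, from Sln to Spp1, and below them for Mstn, Dkk3, Cdh4 and Fbp2.

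The muscle acetylcholine receptor is a pentamer of subunits encoded by Chrna1, Chrnb1, Chrnd and either Chrng in fetal and denervated fibres or Chrne in innervated adult fibres. Myogenic factors such as myogenin bind short motifs called E-boxes. A script searched both strands for the E-box CAGCTG, called the GC-core box below. It also searched both strands for a second form, CAGGTG, called the GG-core box below. These promoters are shown because the fetal subunit gene rose in 67 while the adult one did not pass the test. The 250 bases before the start are from RefSeq (GRCm38.p6), with matches in capitals: Chrng at chr1:87205561-87205810 (+ strand), Chrna1 at chr2:73580339-73580588 (- strand), Chrnb1 at chr11:69795938-69796187 (- strand) and Chrne at chr11:70619195-70619444 (- strand). The table of promoters matched 4 of the 5 subunit genes, all except Chrnd.
Chrng: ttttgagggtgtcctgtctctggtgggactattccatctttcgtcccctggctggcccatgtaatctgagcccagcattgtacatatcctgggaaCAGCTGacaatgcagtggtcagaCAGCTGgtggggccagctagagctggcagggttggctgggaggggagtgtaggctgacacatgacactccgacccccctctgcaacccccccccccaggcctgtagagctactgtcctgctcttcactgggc
Chrna1: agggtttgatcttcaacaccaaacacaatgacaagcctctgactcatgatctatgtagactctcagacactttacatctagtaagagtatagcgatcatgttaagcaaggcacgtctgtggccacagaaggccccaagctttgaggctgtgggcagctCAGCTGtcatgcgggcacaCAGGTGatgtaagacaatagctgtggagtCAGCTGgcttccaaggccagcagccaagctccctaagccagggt
Chrnb1: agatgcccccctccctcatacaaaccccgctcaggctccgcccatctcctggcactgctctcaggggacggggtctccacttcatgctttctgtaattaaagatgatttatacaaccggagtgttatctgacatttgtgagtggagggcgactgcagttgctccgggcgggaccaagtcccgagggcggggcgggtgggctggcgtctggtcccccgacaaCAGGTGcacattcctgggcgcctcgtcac
Chrne: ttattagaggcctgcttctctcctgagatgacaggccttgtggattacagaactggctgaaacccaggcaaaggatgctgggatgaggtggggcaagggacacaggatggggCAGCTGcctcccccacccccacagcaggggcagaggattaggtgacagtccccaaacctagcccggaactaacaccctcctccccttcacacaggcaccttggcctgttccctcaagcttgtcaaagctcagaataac
Chrng held 2 GC-core boxes, beginning 155 and 132 bases before the start. Chrna1 held 2 GC-core boxes and a GG-core box between them, at 92, 44 and 73 bases in that order. Chrnb1 held 1 GG-core box at 29 bases and Chrne 1 GC-core box at 138 bases, and no matches overlapped. Of 32851 RefSeq promoter windows of the same length, 13% held the GC-core box, 17.2% the GG-core box and 27.7% either. A match is therefore common, and the windows of Chrnb1 and Chrne, which did not pass the test, held matches too.

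Chrng, Chrnd and Chrna1 rose, while the adult subunit gene Chrne did not pass. Chrng stood at 0.0522, 0.242 and 0.0264 CPM in WT and 9.64, 5.0 and 8.8 CPM in CMD, with no overlap (log2 fold change 6.35 ± 0.99 (SE), adjusted p = 6.88e-04). Chrnd stood at 0.365, 2.29 and 1.24 CPM in WT and 20.3, 12.3 and 24.6 CPM in CMD (log2 fold change 3.75 ± 0.66 (SE), adjusted p = 0.00154). Chrna1 stood at 5.66, 13.5 and 10.8 CPM in WT and 74.2, 61.3 and 76.4 CPM in CMD (log2 fold change 2.77 ± 0.39 (SE), adjusted p = 3.47e-04). Both lay higher in each CMD library than in any WT library. Chrne stood at 7.98, 11.6 and 14.4 CPM in WT and 17.1, 13 and 9.63 CPM in CMD (log2 fold change 0.25 ± 0.47 (SE), adjusted p = 0.734), and its groups overlapped. Chrnb1 stood at 28.6, 39 and 36 CPM in WT and 44.6, 41.8 and 49.7 CPM in CMD (log2 fold change 0.40 ± 0.16 (SE), adjusted p = 0.092), and its CMD libraries lay just above the WT libraries. In the whole list of 15 synapse genes 5 rose and 1 fell, with a median of 0.48. Erbb3, a neuregulin receptor of muscle and Schwann cells, rose by 1.39 on the log2 scale. Prima1, which anchors acetylcholinesterase in the membrane, stood at 0.626, 2.45 and 2.67 CPM in WT and 0.189, 0.262 and 0.13 CPM in CMD and fell (log2 fold change -3.52 ± 0.48 (SE), adjusted p = 2.92e-04). Genes of the agrin pathway did not pass, with 0.21 (adjusted p = 0.499) for Agrn, 0.68 (adjusted p = 0.403) for Musk, 0.45 (adjusted p = 0.285) for Lrp4 and -0.20 (adjusted p = 0.432) for Rapsn.

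Of 16 genes known to respond to denervation, 10 rose and 1 fell, with a median of 1.88, and 9 of the raised genes were called in all 6 left-out analyses. Myog, Ncam1 and Chrng, given above, are among them. Rrad, a small GTPase that restrains calcium channels, stood at 0.913, 1.05 and 1.58 CPM in WT and 139, 46.2 and 51.4 CPM in CMD (log2 fold change 6.18 ± 0.53 (SE), adjusted p = 1.12e-05). Kcnn3, the calcium-activated potassium channel that denervated fibres make, stood at 0.104, 0.296 and 0.185 CPM in WT and 6.78, 1.33 and 6.83 CPM in CMD (log2 fold change 4.49 ± 0.78 (SE), adjusted p = 0.00144). Runx1, a transcription factor that preserves denervated muscle, stood at 1.2, 2.21 and 1.64 CPM in WT and 30.8, 15 and 26.3 CPM in CMD (log2 fold change 3.77 ± 0.35 (SE), adjusted p = 1.96e-05). All 3 genes were higher in every CMD library. Gdf5, a bone morphogenetic protein, had 1 read in all WT libraries and 251 in all CMD libraries, a ratio of 218.2 with a 95% counting interval from 38.81 to 8653 (adjusted p = 7.68e-04, edgeR). Hdac4 and Dach2, which carry the denervation signal in classic models, did not pass, with 0.52 (adjusted p = 0.0579) and 0.89 (adjusted p = 0.546). Fgfbp1 fell by 2.39 on the log2 scale. Of 14 Schwann cell and myelin genes 3 rose (1 without WT library 9 or CMD library 10) and none fell. Egr2, the transcription factor of myelinating Schwann cells and also an early-response gene, stood at 0.287, 0.646 and 0.422 CPM in WT and 3.71, 2.6 and 2.26 CPM in CMD (log2 fold change 2.54 ± 0.40 (SE), adjusted p = 7.67e-04), whereas Sox10, which marks the lineage, did not pass, with 0.45 (adjusted p = 0.512). The summed level of the Schwann cell list was 61.3 to 78.5 CPM in WT and 71.3 to 135 CPM in CMD.

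Of 19 genes that respond to stretch and load at the Z-disc, 11 rose and 1 fell (0 without WT library 7 or 9 or CMD library 11 or 12 and 0 with library totals), with a median of 1.53, and 9 were called in all 6 left-out analyses. Csrp3 encodes muscle LIM protein, a Z-disc sensor of strain, and stood at 1.62, 0.323 and 3.91 CPM in WT and 325, 116 and 651 CPM in CMD (log2 fold change 6.69 ± 1.48 (SE), adjusted p = 0.00594). Ankrd2, its partner of slow fibres, stood at 0.495, 1.37 and 6.31 CPM in WT and 153, 56.9 and 353 CPM in CMD (log2 fold change 5.65 ± 1.28 (SE), adjusted p = 0.00679), and Ankrd1 rose by 4.06 on the log2 scale. No CMD library fell into the WT range for these genes. The keratins Krt18 and Krt8 join the intermediate filaments of damaged muscle. Krt18 stood at 0.417, 0.565 and 0.0528 CPM in WT and 30.4, 15 and 34.2 CPM in CMD (log2 fold change 6.19 ± 0.66 (SE), adjusted p = 6.77e-05). Krt8 stood at 0.365, 0.646 and 0.369 CPM in WT and 8.32, 4.09 and 6.91 CPM in CMD (log2 fold change 3.82 ± 0.44 (SE), adjusted p = 1.07e-04). Both were higher in every CMD library. Hspb7, a small heat shock protein of cardiac and striated muscle, rose by 4.57, nestin (Nes) by 1.95, αB-crystallin (Cryab) by 1.53 and vimentin (Vim) by 1.29. The Z-disc structural genes Ldb3, Myot and Tcap did not pass, with -0.17 (adjusted p = 0.415), 0.21 (adjusted p = 0.59) and 0.40 (adjusted p = 0.265).

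Among genes whose mean CPM over the libraries of 67 was at least 1 on the log2 scale, the largest rise was that of a calcium handling gene. Sln encodes sarcolipin, a small peptide that uncouples calcium transport from ATP use by SERCA, and stood at 0.60, 0.215 and 0.132 CPM in WT and 177, 110.2 and 244 CPM in CMD (log2 fold change 9.18 ± 0.71 (SE), adjusted p = 6.06e-06). No WT library came near the CMD libraries, of which library 12 was the highest. Elsewhere in the list most changes were downward, with 2 raised (1 without WT library 7 or 9 or CMD library 10 or 11, 1 in females and 1 in 67 alone) and 7 lowered (4 without WT library 8 or 9 or CMD library 11 and 3 with library totals) of 16 and a median of -0.46. Mrln, which encodes myoregulin, the SERCA inhibitor of fast fibres, stood at 39.1, 55.7 and 34.1 CPM in WT and 13.8, 9.37 and 10.3 CPM in CMD and fell (log2 fold change -1.85 ± 0.33 (SE), adjusted p = 0.00167), so sarcolipin and myoregulin moved in opposite directions. Jph1, which ties the T-tubule to the sarcoplasmic reticulum, fell by 1.27 and Stac3, a subunit of the excitation-contraction machinery, by 0.85 on the log2 scale. Phospholamban (Pln) was at 1.35 (adjusted p = 0.0444), a call lost without WT library 7 or 9 or CMD library 10 or 11, where the adjusted p reached 0.236. Of 13 ion channel genes 2 rose (1 without WT library 7 or 9 or CMD library 12) and 3 fell. That is 15.4% raised, near the 12.9% of all genes tested, and 23.1% lowered, against 9.45%. Scn4a, the sodium channel of adult muscle, fell by 0.99 and the potassium channel Kcnj12 by 1.0 on the log2 scale.

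In energy metabolism, glycolysis genes fell, while genes of the respiratory chain differed by list. Of the nuclear genes, 13.6% of complex I and 36% of complexes II to V rose, against 12.9% of all genes tested. No mitochondrially encoded gene passed. Of 23 glycolysis and glycogen genes 13 fell (7 without WT library 8) and 2 rose, with a median of -0.69. Fbp2, the muscle fructose bisphosphatase, stood at 67.8, 277 and 90.3 CPM in WT and 24.6, 31 and 45.3 CPM in CMD and fell (log2 fold change -2.25 ± 0.41 (SE), adjusted p = 0.0017). Phka1, a subunit of phosphorylase kinase, stood at 1228, 1113 and 1208 CPM in WT and 359, 277 and 302 CPM in CMD and fell (log2 fold change -1.83 ± 0.30 (SE), adjusted p = 0.00102). Neither gene overlapped. Pygm, the muscle glycogen phosphorylase whose loss causes McArdle disease, fell by 1.41, Pgm1 by 1.52 and Ldha by 1.03 on the log2 scale. The lactate dehydrogenase subunits moved in opposite directions. Ldhb, the heart subunit, stood at 3.76, 14.1 and 24.3 CPM in WT and 189, 284 and 279 CPM in CMD and rose (log2 fold change 3.9 ± 0.81 (SE), adjusted p = 0.00419). Gbe1, the glycogen branching enzyme, also rose, by 1.38.

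Of 22 nuclear complex I genes 3 rose (0 to 1 without WT library 7, 8 or 9 or CMD library 10, 11 or 12, 18 with library totals, 1 in females and 5 in DESeq2) and 1 fell (0 without WT library 8 or CMD library 12 and 0 with library totals), with a median of 0.22. In B6 CMD muscle, where 8.23% of all genes tested rose and 8.81% fell, 20 of the same 22 rose, and in 87, where 13.5% rose and 10.2% fell, 21 rose. The CMD effect was lower in 67 than in 87 for 8 of the 22 by the test of the difference, and lower than in B6 for 0. Of 25 genes of complexes II to V, 9 rose in 67 (3 without WT library 9, 5 without CMD library 11 and 20 with library totals) with a median of 0.29. This compares with 23 raised in B6 and 25 in 87, and the effect was lower in 67 than in 87 for 6 and lower than in B6 for 0. Uqcrq, a complex III subunit, stood at 122, 172 and 152 CPM in WT and 246, 219 and 244 CPM in CMD (log2 fold change 0.59 ± 0.11 (SE), adjusted p = 0.0026). Cox5b, a complex IV subunit, rose by 0.53 on the log2 scale. Of the 13 mitochondrially encoded genes none rose (2 with library totals, 1 in 67 alone and 1 in DESeq2) and none fell. Most genes of both nuclear lists rose with library totals in place of TMM, so their balance rests on the scaling. Of 22 TCA cycle genes 5 rose (2 to 3 without WT library 7, 8 or 9 or CMD library 11 or 12, 15 with library totals and 3 in females) and 2 fell (1 without WT library 7, 8 or 9 or CMD library 10 or 12, 1 with library totals, 1 without the sex term, 1 in females and 1 in 67 alone). Got2, the mitochondrial aspartate aminotransferase, rose by 0.98 and Mdh1 by 0.87, while Pcx, pyruvate carboxylase, fell by 1.14. Of 22 fatty acid genes 3 rose (0 to 7 without WT library 9 or CMD library 10, 11 or 12, 15 with library totals, 5 without the sex term, 0 in females, 11 in 67 alone and 9 in DESeq2), with a median of 0.62. In 87, 21 rose, and the test of the difference between 67 and 87 called 0 of the 22. The share of fatty acid genes raised in 67, 13.6%, was near the 12.9% of all genes tested. Bdh1, the mitochondrial enzyme of ketone use, is among the most raised genes of all. It stood at 0.13, 0.323 and 0.765 CPM in WT and 13.9, 60.2 and 52.6 CPM in CMD (log2 fold change 6.4 ± 1.29 (SE), adjusted p = 0.00333).

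Regulators of the oxidative programme changed in both directions. Of 21, 7 rose (4 without WT library 7) and 3 fell (1 without WT library 9). Esrrg and Esrrb are estrogen-related receptors that drive oxidative genes. Esrrg stood at 0.548, 2.05 and 3.03 CPM in WT and 23.9, 16 and 27.4 CPM in CMD (log2 fold change 3.41 ± 0.68 (SE), adjusted p = 0.00315). Esrrb stood at 0.235, 0.35 and 0.58 CPM in WT and 5.86, 10.2 and 10.6 CPM in CMD (log2 fold change 4.25 ± 0.78 (SE), adjusted p = 0.00194). Each was higher in all CMD libraries. Rcan1, a target and inhibitor of calcineurin, rose by 2.03 and Nfatc2 by 1.15, while Eya1, a cofactor of the fast programme, fell by 0.85 on the log2 scale. Sox6, which represses slow genes, was at -1.02 (adjusted p = 0.00824), with the call lost without WT library 9, where the adjusted p reached 0.0505. Mb, myoglobin, the oxygen store of oxidative fibres, stood at 34.6, 263 and 344 CPM in WT and 3082, 3627 and 4656 CPM in CMD (log2 fold change 4.04 ± 0.80 (SE), adjusted p = 0.00311). In a list of 10 general muscle genes, 4 fell (Myh4, Pygm, Ckm and Tnnt3) and Mb rose, while Acta1, Ttn and Des did not pass with -0.22 (adjusted p = 0.439), -0.51 (adjusted p = 0.191) and 0.34 (adjusted p = 0.239). Ckm, muscle creatine kinase, stood at 28972, 27201 and 28834 CPM in WT and 12584, 13714 and 11139.6 CPM in CMD, without overlap (log2 fold change -1.13 ± 0.20 (SE), adjusted p = 0.00141).

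In the basement membrane the laminin chain genes Lama4 and Lamb1 rose and Lamc3 fell. Of 22 laminin and basement membrane genes 8 rose (2 to 5 without WT library 7, 8 or 9 or CMD library 10 or 11 and 3 without the sex term) and 1 fell (0 to 2 without WT library 8 or 9 or CMD library 10, 11 or 12 and 2 in females), with a median of 0.41. Col4a1, a chain of the collagen IV network, stood at 90.3, 83.4 and 82.7 CPM in WT and 110.3, 196 and 139.9 CPM in CMD (log2 fold change 0.89 ± 0.20 (SE), adjusted p = 0.0073), higher in each CMD library than in any WT library. Lama4, the chain of vessel and embryonic laminins, was at 0.78 (adjusted p = 0.0196), with the call lost without WT library 7 or 9 or CMD library 10, where the adjusted p reached 0.0888. The call of Lamb1, at 0.53 (adjusted p = 0.0299), was lost without WT library 7, 8 or 9 or CMD library 10, 11 or 12, where the adjusted p reached 0.107. That of Lamc3, at -1.8 (adjusted p = 0.0235), was lost without WT library 8 or 9 or CMD library 10 or 12, where the adjusted p reached 0.0834. Lama5, Lamb2 and Lamc1 did not pass, with -0.65 (adjusted p = 0.105), -0.0452 (adjusted p = 0.895) and 0.63 (adjusted p = 0.0662). Of 24 laminin receptor and dystrophin complex genes 3 rose (6 with library totals) and 1 fell (2 without CMD library 10, 0 with library totals, 2 in females, 2 in 67 alone and 2 in DESeq2). That is 12.5% raised, near the 12.9% of all genes tested, and 4.17% lowered, against 9.45%. Itgb1, the integrin β1 chain, stood at 152, 185 and 173 CPM in WT and 278, 219 and 308 CPM in CMD (log2 fold change 0.65 ± 0.15 (SE), adjusted p = 0.00861). Caveolin 3 (Cav3) rose by 0.55 on the log2 scale. Dag1, Itga7, Utrn and Dmd did not pass, with -0.53 (adjusted p = 0.0748), 0.28 (adjusted p = 0.181), 0.69 (adjusted p = 0.0879) and 0.21 (adjusted p = 0.709).

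Matrix genes rose and none fell in the collagen and glycoprotein lists. Of 27 glycoproteins and proteoglycans 19 rose, with a median of 1.71, and 13 were called in all 18 alternative analyses of the 67 effect. Cthrc1, a secreted protein of activated fibroblasts, stood at 0.0261, 0 and 0.106 CPM in WT and 1.35, 2.02 and 0.935 CPM in CMD (log2 fold change 4.75 ± 0.97 (SE), adjusted p = 0.00365). Postn, periostin, a matricellular protein of fibrosis, stood at 3.0, 4.04 and 6.36 CPM in WT and 65.2, 42 and 50.9 CPM in CMD (log2 fold change 3.65 ± 0.55 (SE), adjusted p = 5.27e-04). Cilp, a matrix protein that binds TGF-β, stood at 24.4, 29.4 and 15.2 CPM in WT and 244, 247 and 193 CPM in CMD (log2 fold change 3.57 ± 0.55 (SE), adjusted p = 6.16e-04). The groups did not overlap for these 3 genes. Ltbp2, a microfibril protein, rose by 3.16, the microfibril proteins Mfap4 and Mfap5 by 2.69 and 2.46, biglycan (Bgn) by 2.28, thrombospondin 4 (Thbs4) by 2.4 and elastin (Eln) by 1.68 on the log2 scale. Fibronectin (Fn1) was at 1.88 (adjusted p = 0.0118), with the call lost without WT library 8, where the adjusted p reached 0.0573. Decorin (Dcn) and tenascin C (Tnc) did not pass, with 0.54 (adjusted p = 0.0669) and 0.21 (adjusted p = 0.822).

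Of 25 collagen genes and collagen-processing enzymes 12 rose (5 to 7 without WT library 7, 8 or 9 or CMD library 10 or 11, 20 with library totals and 4 without the sex term), with a median of 1.05. Col8a1, a network collagen, stood at 3.23, 2.37 and 2.24 CPM in WT and 24.5, 16.9 and 16.7 CPM in CMD (log2 fold change 2.99 ± 0.37 (SE), adjusted p = 1.71e-04). Loxl1, which crosslinks elastin and collagen, stood at 12.4, 7.94 and 10.4 CPM in WT and 23.9, 28.3 and 24 CPM in CMD (log2 fold change 1.4 ± 0.34 (SE), adjusted p = 0.0095). Both rose in all 18 alternatives. Col3a1 stood at 219.7, 100.2 and 137 CPM in WT and 444, 464 and 234 CPM in CMD (log2 fold change 1.72 ± 0.57 (SE), adjusted p = 0.0427), a call lost without WT library 7, 8 or 9 or CMD library 10 or 11, where the adjusted p reached 0.126. The fibrillar collagen I genes Col1a1 and Col1a2 did not pass, with 1.5 (adjusted p = 0.0593) and 1.21 (adjusted p = 0.0743). Col1a1 stood at 122, 81.7 and 93.1 CPM in WT and 242, 320.1 and 141 CPM in CMD. For both Col1a1 and Col3a1 the male WT library 7 was the highest WT library and CMD library 12 the lowest CMD library, without overlap.

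Of 22 matrix proteases and inhibitors 10 rose (6 without WT library 9) and none fell (1 in 67 alone). Timp1, the inhibitor of metalloproteinases that damaged muscle secretes, stood at 0.0522, 0.108 and 0.211 CPM in WT and 11.7, 3.17 and 5.63 CPM in CMD (log2 fold change 5.68 ± 0.60 (SE), adjusted p = 6.73e-05). Mmp3, stromelysin, stood at 0.313, 0.458 and 0.396 CPM in WT and 7.07, 4.07 and 3.09 CPM in CMD (log2 fold change 3.51 ± 0.83 (SE), adjusted p = 0.00871). Mmp2 rose by 1.59 and its activator Mmp14 by 1.34 on the log2 scale. Timp1 and Mmp3 showed no overlap between groups. Of 20 TGF-β pathway genes 6 rose (10 with library totals) and none fell (1 in females and 1 in 67 alone). Tgfb1, the ligand, stood at 3.62, 3.85 and 2.9 CPM in WT and 14.2, 15.1 and 20.5 CPM in CMD (log2 fold change 2.32 ± 0.22 (SE), adjusted p = 1.96e-05), and its receptor Tgfbr2 rose by 0.92. Ccn2 (connective tissue growth factor), a target of the pathway, stood at 3.83, 10.1 and 7.92 CPM in WT and 62.1, 52.7 and 80.1 CPM in CMD (log2 fold change 3.01 ± 0.40 (SE), adjusted p = 2.43e-04). Tgfb2 and Tgfb3 did not pass, with -0.045 (adjusted p = 0.892) and 0.54 (adjusted p = 0.0807), and neither did the inhibitory Smad7, with 0.50 (adjusted p = 0.0654).

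The myostatin axis moved at several points. Mstn, the secreted brake on muscle growth, stood at 85.6, 105 and 86.6 CPM in WT and 11.6, 14.3 and 14.4 CPM in CMD and fell (log2 fold change -2.85 ± 0.40 (SE), adjusted p = 3.48e-04). Fst, follistatin, which binds and blocks myostatin and activin, stood at 7.59, 3.55 and 3.91 CPM in WT and 23.8, 13.1 and 19.3 CPM in CMD and rose (log2 fold change 2.22 ± 0.25 (SE), adjusted p = 9.34e-05). Acvr1b, a type I receptor of the pathway, fell by 1.29 and Fstl1 rose by 1.35 on the log2 scale. So the ligand was lower and its binding protein higher in every CMD library. In the list of 24 growth factors 7 rose (2 to 4 without WT library 7, 8 or 9 or CMD library 10, 11 or 12 and 4 without the sex term) and 3 fell. Of 21 Wnt pathway genes 5 rose (2 to 3 without WT library 8 or 9 or CMD library 10 or 11) and 2 fell (4 in females). Dkk3, a secreted member of the Dickkopf family, stood at 86, 56.4 and 53.7 CPM in WT and 4.11, 6.98 and 4.54 CPM in CMD and fell (log2 fold change -3.41 ± 0.50 (SE), adjusted p = 4.75e-04). Wnt4 fell by 1.87, whereas Axin2, a feedback target of the canonical pathway, rose by 1.26 and Wnt11 by 0.80.

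**Figure D3:**
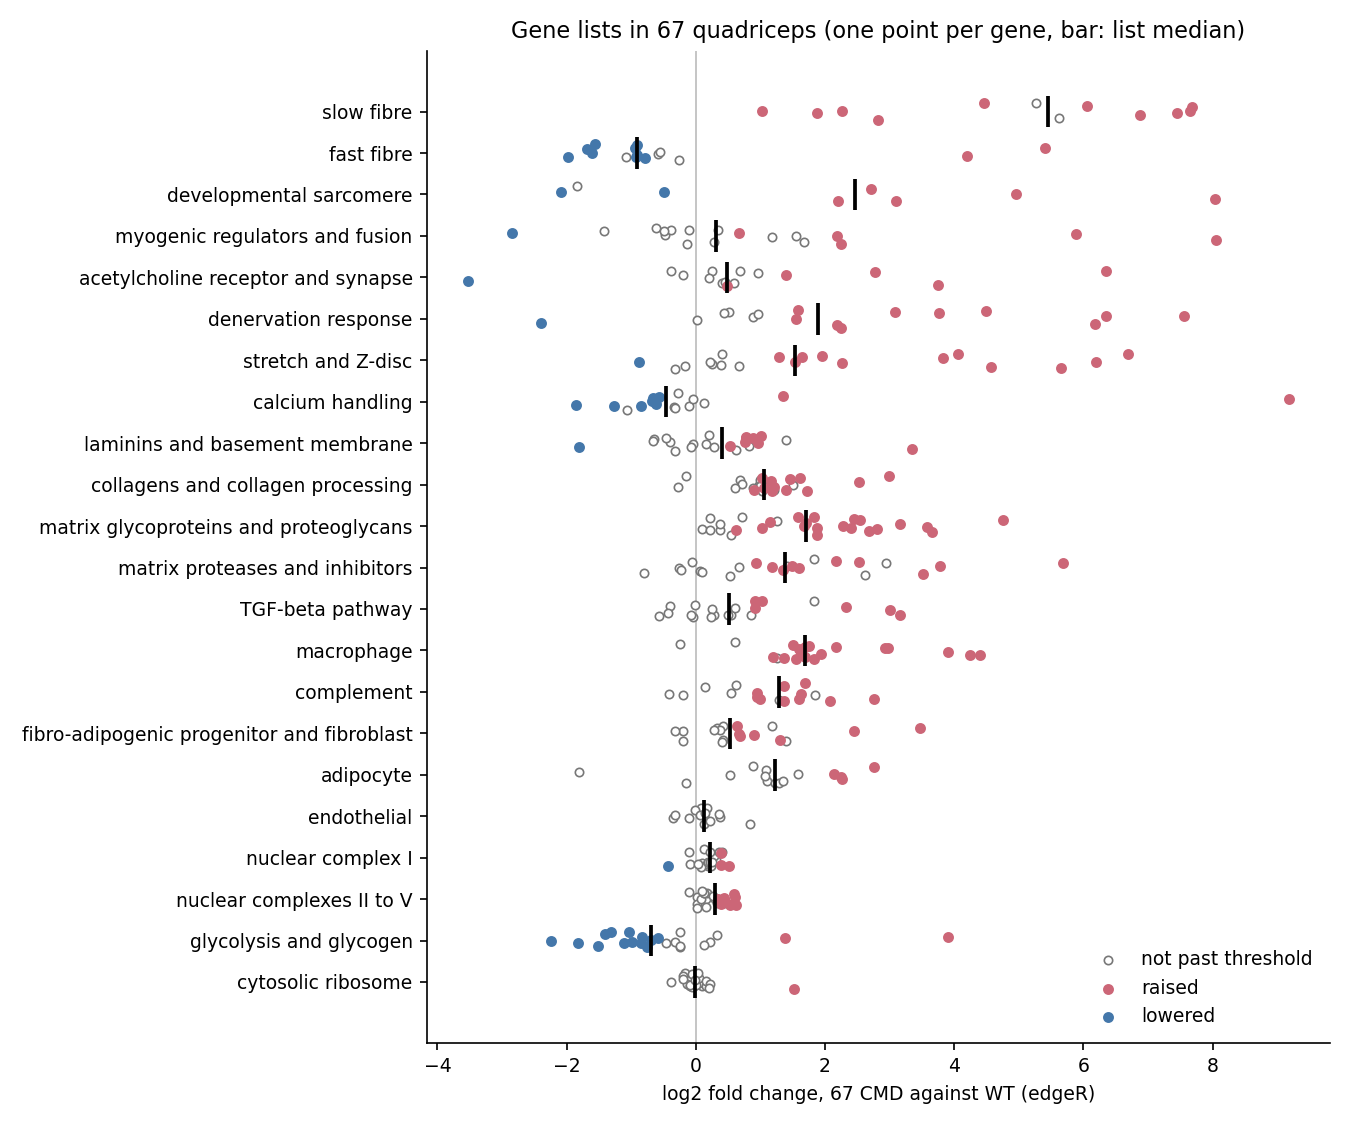
Each row is a gene list, the points are the fitted log2 fold changes (CMD minus WT, horizontal axis) of its tested genes in 67, coloured by whether they passed the test, and the bar is the list's median. The slow-fibre list has the highest median of these lists, the calcium handling gene Sln is the highest point, fast-fibre and glycolysis genes lie mostly below 0, and endothelial and ribosome genes lie around 0.

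Macrophage genes rose. Of 20, 17 rose (11 without WT library 7, 10 without WT library 9, 10 without CMD library 12 and 10 without the sex term) and none fell, with a median of 1.69, and their summed level was 103 to 169.6 CPM in WT and 261 to 404 CPM in CMD. Trem2, a lipid receptor of macrophages that clear debris, stood at 0.104, 0.0269 and 0.264 CPM in WT and 2.51, 1.71 and 2.57 CPM in CMD (log2 fold change 4.39 ± 0.72 (SE), adjusted p = 9.96e-04). Spp1, osteopontin, which macrophages of dystrophic muscle secrete, stood at 0.0782, 0.404 and 0.185 CPM in WT and 7.7, 3.17 and 2.83 CPM in CMD (log2 fold change 4.24 ± 0.54 (SE), adjusted p = 1.96e-04). Cx3cr1, the fractalkine receptor, stood at 0.417, 0.269 and 0.0264 CPM in WT and 2.69, 1.65 and 3.35 CPM in CMD (log2 fold change 3.9 ± 0.68 (SE), adjusted p = 0.00139), and its ligand Cx3cl1 rose by 2.95 on the log2 scale. The groups did not overlap for these genes. Lgals3 (galectin 3) rose by 2.97 and Ms4a7 by 2.92, while the resident markers Mrc1 and Cd163 did not pass, with 0.61 (adjusted p = 0.251) and -0.25 (adjusted p = 0.629).

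Of 23 chemokines and cytokines 10 rose (5 without WT library 8, 4 without WT library 9 and 5 without CMD library 10) and none fell. Cxcl10 and Ccl8 attract leukocytes. Cxcl10 stood at 0.13, 0.0538 and 0.264 CPM in WT and 5.34, 1.35 and 2.0 CPM in CMD (log2 fold change 4.41 ± 0.98 (SE), adjusted p = 0.00587). Ccl8 stood at 1.67, 0.727 and 0.396 CPM in WT and 14.5, 4.13 and 8.91 CPM in CMD (log2 fold change 3.98 ± 0.88 (SE), adjusted p = 0.00568). Both were higher in every CMD library. Of 17 complement genes 10 rose (5 without WT library 7, 4 without WT library 9 and 3 without the sex term) and none fell (1 in females). C3ar1, the receptor of the C3a fragment, rose by 2.08 and C1qa by 1.63 on the log2 scale. Of 23 interferon and antigen presentation genes 7 rose (1 to 3 without WT library 7 or 9 or CMD library 10 or 12 and 0 without the sex term). Of 10 neutrophil and mast cell genes 3 rose (0 to 1 without WT library 7, 8 or 9 or CMD library 10, 11 or 12 and 1 in 67 alone). Of 10 lymphocyte genes 2 rose (0 to 1 without WT library 7, 8 or 9 or CMD library 10 or 11, 1 without the sex term, 0 in females and 1 in 67 alone). The summed lymphocyte level was 1.53 to 2.63 CPM in WT and 3.12 to 6.52 CPM in CMD, and Ly6g of the neutrophil list had no reads in 67.

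Markers of other cells moved unevenly. Of 18 fibro-adipogenic progenitor and fibroblast genes 7 rose (3 to 4 without WT library 7 or 9 or CMD library 10 or 11 and 4 without the sex term), and the summed level was 1042 to 1568 CPM in WT and 1629 to 1730.0 CPM in CMD. Pdgfra, the receptor that defines these progenitors, stood at 20.2, 17.4 and 15.8 CPM in WT and 27.4, 27.2 and 27 CPM in CMD (log2 fold change 0.68 ± 0.15 (SE), adjusted p = 0.00564), and Fap rose by 1.31 on the log2 scale. Of 15 adipocyte genes 4 rose (1 to 2 without WT library 7, 8 or 9 or CMD library 11 or 12 and 11 in 67 alone), with a summed level of 1265 to 2238 CPM in WT and 3819 to 7575 CPM in CMD. Car3, which type I muscle fibres also make, stood at 418, 448 and 1407 CPM in WT and 3110.4, 2210.4 and 5106 CPM in CMD (log2 fold change 2.14 ± 0.43 (SE), adjusted p = 0.0032) and supplied most of that sum in CMD, while Adipoq and Plin1, which define adipocytes, did not pass, with 1.1 (adjusted p = 0.35) and 1.22 (adjusted p = 0.313). Cfd, Lpl and Retn of the adipocyte list also rose, and each lost its call without WT library 7, 8 or 9. All CMD libraries lay above all WT libraries for 12 of the 15 adipocyte genes and below them for 1, with a median of 1.22. Over all genes tested, all CMD libraries lay above for 22.9%. Of 14 endothelial genes none passed, and the sum was 271 to 333 CPM in WT and 239.6 to 465 CPM in CMD. Of 11 pericyte and smooth muscle genes 2 rose (1 without WT library 7 or 9 or CMD library 11 or 12, 1 with RLE factors, 1 without the sex term, 1 in females and 1 in 67 alone), among them Cspg4 (NG2) by 1.54. The matrix and immune genes above rose together with the macrophage and fibroblast markers, whose part in those results was not tested. Of 12 tendon and cartilage genes 4 rose and 1 fell, with fitted log2 fold changes from -4.41 to 2.41 over the list. Prg4, lubricin, stood at 3.52, 5.01 and 5.36 CPM in WT and 27.6, 20.5 and 27.9 CPM in CMD and rose (log2 fold change 2.41 ± 0.36 (SE), adjusted p = 5.58e-04). Of 11 bone and mineralisation genes 6 rose, Spp1 included, and 1, Kl, fell (0 without WT library 8). Mgp, an inhibitor of calcification, stood at 4.77, 23.8 and 10.5 CPM in WT and 156, 111 and 243 CPM in CMD and rose (log2 fold change 3.6 ± 0.47 (SE), adjusted p = 2.10e-04). Bglap, which defines osteoblasts, had no reads.

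**Figure D4:**
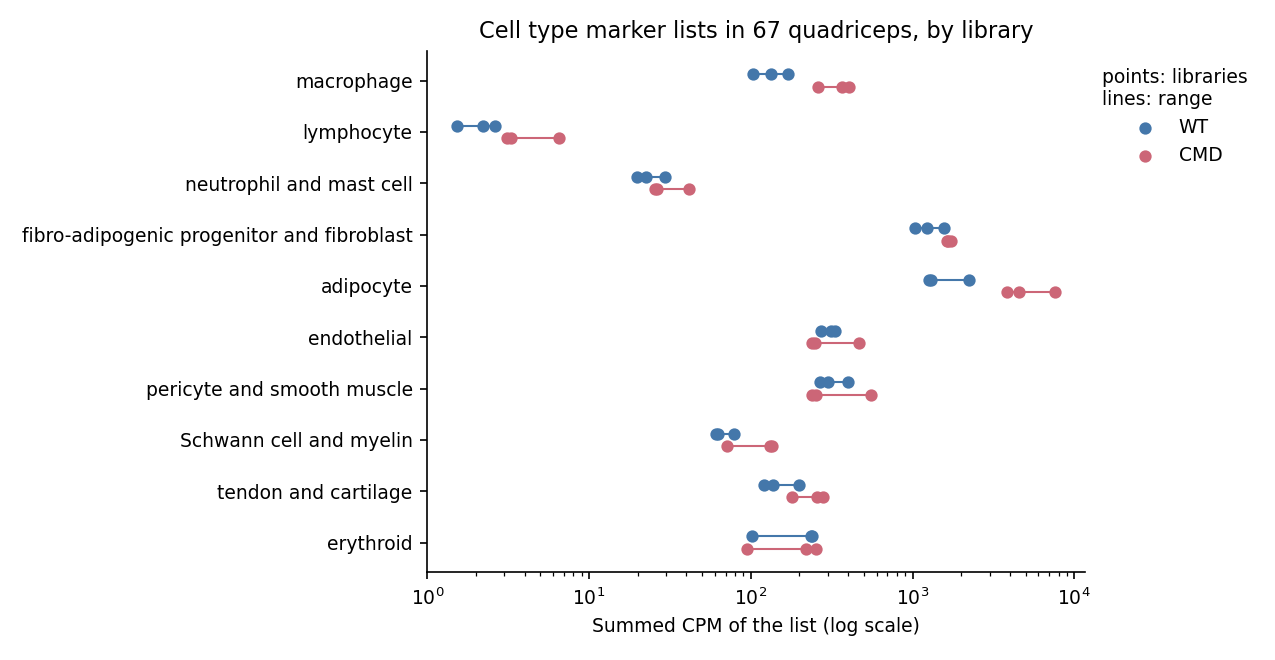
Points show the summed CPM (log axis) of each cell type's marker list in the 6 libraries of 67, WT and CMD in separate colours. Macrophage sums run from 102.6 to 169.6 CPM in WT and from 261.3 to 404.2 CPM in CMD without overlap, and endothelial sums overlap.

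Damage and stress genes rose in part. Of 18 membrane repair genes 8 rose and 1 fell (2 in females, 2 in 67 alone and 2 in DESeq2), with a median of 0.80. S100a4 stood at 3.86, 3.63 and 4.33 CPM in WT and 34.8, 30.1 and 28.4 CPM in CMD (log2 fold change 3.09 ± 0.32 (SE), adjusted p = 6.36e-05). The annexin gene Anxa8 stood at 2.37, 0.888 and 0.66 CPM in WT and 11.1, 6.43 and 5.53 CPM in CMD (log2 fold change 2.84 ± 0.56 (SE), adjusted p = 0.00315). Neither overlapped between groups. Anxa1, Anxa4 and Anxa5, annexins that bind exposed membrane, rose by 1.57, 2.12 and 1.1 on the log2 scale, while dysferlin (Dysf) and Trim72 did not pass, with -0.28 (adjusted p = 0.153) and 0.29 (adjusted p = 0.178). Capn3, the muscle calpain, fell by 0.73. Of 18 heat shock and immediate early genes 9 rose and none fell (2 in females and 1 in 67 alone), with a median of 1.21. Egr1 and Junb encode early-response transcription factors. Egr1 stood at 6.34, 5.54 and 10.3 CPM in WT and 45.3, 41 and 63.7 CPM in CMD (log2 fold change 2.54 ± 0.60 (SE), adjusted p = 0.00877). Junb stood at 6.42, 7.48 and 10.2 CPM in WT and 64.2, 41.2 and 44 CPM in CMD (log2 fold change 2.54 ± 0.41 (SE), adjusted p = 9.05e-04). Both were higher in every CMD library. Hspa1a and Hspa1b, near-identical copies between which reads can be split, were at 2.77 (adjusted p = 0.0149) and 2.58 (adjusted p = 0.0267). The call of Hspa1a was lost without WT library 7 or 8, where the adjusted p reached 0.0657. That of Hspa1b was lost without WT library 7, 8 or 9 or CMD library 10 or 12, where the adjusted p reached 0.097. Of 18 integrated stress response genes 4 rose (1 to 2 without WT library 9 or CMD library 10, 11 or 12, 9 with library totals and 7 in DESeq2). Atf3 rose by 3.78, whereas Atf4 and Ddit3 did not pass, with -0.23 (adjusted p = 0.591) and 0.79 (adjusted p = 0.0593).

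The list of 14 p53 targets and senescence genes had 5 raised (8 with library totals and 3 without the sex term) and 1 lowered. Cdkn1a, the p21 inhibitor of the cell cycle, stood at 5.14, 20.5 and 9.39 CPM in WT and 124, 111 and 120.1 CPM in CMD (log2 fold change 3.09 ± 0.47 (SE), adjusted p = 5.61e-04). Eda2r, a p53 target and receptor of ectodysplasin, stood at 9.62, 12.4 and 12.7 CPM in WT and 80.5, 36.4 and 90.6 CPM in CMD (log2 fold change 2.66 ± 0.32 (SE), adjusted p = 1.49e-04), and Phlda3, another p53 target, rose by 1.85 on the log2 scale. Mdm2 and Bax did not pass, with 0.0817 (adjusted p = 0.644) and 0.41 (adjusted p = 0.0965). Of 18 cell cycle genes 4 rose (2 without WT library 9) and 1 fell (0 without WT library 8, 2 in females and 2 in 67 alone). Mcm6, a subunit of the replicative helicase, stood at 2.35, 0.377 and 1.24 CPM in WT and 9.81, 4.01 and 8.33 CPM in CMD (log2 fold change 2.46 ± 0.52 (SE), adjusted p = 0.00448), while its partners Mcm2 and Mcm5 and the proliferation marker Mki67 did not pass, with -0.71 (adjusted p = 0.148), 0.92 (adjusted p = 0.128) and 1.15 (adjusted p = 0.433). So of the helicase subunits tested, Mcm6 alone passed.

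Genes of muscle wasting mostly did not pass. Of 18 in the atrophy and glucocorticoid list 1 rose (0 to 2 without WT library 8 or 9 or CMD library 11 or 12, 3 with library totals, 3 without the sex term, 2 in females, 2 in 67 alone and 3 in DESeq2) and 1 fell. The raised gene was Mt2, a metallothionein, at 4.35 (adjusted p = 0.0222), with the call lost without WT library 8 or 9 or CMD library 12, where the adjusted p reached 0.0991. The ubiquitin ligases Fbxo32 (atrogin 1) and Trim63 (MuRF1) were at 0.85 (adjusted p = 0.35) and -0.27 (adjusted p = 0.799), and Fbxo32 stood at 178, 192 and 259 CPM in WT and 321, 265 and 666 CPM in CMD. Foxo4, a transcription factor of the atrophy programme, stood at 188, 212 and 216 CPM in WT and 129.8, 124 and 128 CPM in CMD and fell (log2 fold change -0.76 ± 0.14 (SE), adjusted p = 0.00192). Of 22 proteasome genes 1 rose (0 without WT library 7, 8 or 9 or CMD library 10 or 11 and 0 without the sex term) and 1 fell (0 without WT library 7, 8 or 9 or CMD library 10, 11 or 12, 0 with library totals, 3 in females, 4 in 67 alone and 2 in DESeq2), with a median of -0.17, which was above 0 with library totals. Of 22 autophagy and lysosome genes 6 rose (3 without WT library 7 or 9 or CMD library 12) and 3 fell (1 without WT library 7, 8 or 9 or CMD library 10 or 11, 1 with library totals and 1 without the sex term). Tfeb, the regulator of lysosome genes, stood at 107, 107 and 121 CPM in WT and 53.7, 58.2 and 53.5 CPM in CMD and fell (log2 fold change -1.08 ± 0.15 (SE), adjusted p = 2.69e-04), whereas Ctss, a macrophage cathepsin, rose by 2.26. Of 24 cytosolic ribosome genes 1 rose, Rpl3 (2 with library totals), and none fell (1 in DESeq2). In 87, 21 rose, and the test of the difference between 67 and 87 called 0 of the 24. Rpl3 stood at 35.1, 36.1 and 29.9 CPM in WT and 88.9, 83 and 116 CPM in CMD (log2 fold change 1.52 ± 0.24 (SE), adjusted p = 6.76e-04). It is the subunit that adult muscle exchanges for its paralog Rpl3l. Of 20 NAD and polyamine genes 5 fell (3 without WT library 8 or 9 or CMD library 10 or 11 and 3 with library totals) and 1 rose (0 to 2 without WT library 7, 8 or 9 or CMD library 10, 11 or 12, 4 with library totals, 3 in females, 4 in 67 alone and 2 in DESeq2). Amd1, the enzyme that supplies decarboxylated S-adenosylmethionine for polyamines, stood at 1721, 310.2 and 353 CPM in WT and 99.1, 75 and 52.5 CPM in CMD and fell (log2 fold change -2.15 ± 0.38 (SE), adjusted p = 0.00157), with the male WT mouse far above the 2 female WT mice. Smox, spermine oxidase, stood at 331, 126 and 75.7 CPM in WT and 29.5, 21.2 and 16.6 CPM in CMD and fell (log2 fold change -2.11 ± 0.46 (SE), adjusted p = 0.00515). Of 19 circadian genes 4 fell (2 without CMD library 12, 2 with library totals and 8 in 67 alone) and none rose. Bhlhe41 fell by 1.43, and the core genes Bmal1, Clock and Per2 did not pass, with 0.0655 (adjusted p = 0.945), -0.16 (adjusted p = 0.676) and -0.39 (adjusted p = 0.38).

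The genes that fell furthest, among genes whose groups did not overlap and whose log2 CPM averaged 1 or more, included Pla2g5, Dkk3, Cdh4, Pla2g7, Gdap1, Mstn, Abca4, Cntnap2 and Kazald1. Pla2g5, a secreted phospholipase A2, stood at 0.495, 7.81 and 8.73 CPM in WT and 0.213, 0 and 0.026 CPM in CMD (log2 fold change -6.25 ± 0.99 (SE), adjusted p = 7.77e-04). Pla2g7, the plasma platelet-activating factor acetylhydrolase, stood at 116, 121 and 98.2 CPM in WT and 12.5, 13.4 and 14.9 CPM in CMD (log2 fold change -2.92 ± 0.33 (SE), adjusted p = 9.34e-05). Cdh4, a cadherin of developing nerve and muscle, stood at 15.3, 10.3 and 22.1 CPM in WT and 2.15, 1.51 and 0.831 CPM in CMD (log2 fold change -3.11 ± 0.70 (SE), adjusted p = 0.00644). All 3 fell without overlap. Gdap1, a mitochondrial fission protein whose loss causes a hereditary neuropathy, fell by 2.9, Abca4 by 2.76, Cntnap2 by 2.74 and Kazald1 by 2.6 on the log2 scale. Among the rises, the 10 largest under the same rule were Sln, Mymx, Myh3, Myoz2, Myh7, Tnni1, Tnnt1, Csrp3, Bdh1 and Chrng, all described above.

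The 10 genes with the smallest p-values were Ttc9, Sh3d19, Aif1l, Sln, Cpne2, Tubb6, Arhgef2, Pam, Osbpl3 and Rrad. Tubb6, a β-tubulin that rises in regenerating and dystrophic muscle, stood at 11.2, 8.32 and 6.7 CPM in WT and 68, 46.2 and 47.7 CPM in CMD (log2 fold change 2.61 ± 0.22 (SE), adjusted p = 1.12e-05). Arhgef2, a microtubule-bound activator of RhoA, stood at 16.7, 14.3 and 12 CPM in WT and 33.8, 31.5 and 34.9 CPM in CMD (log2 fold change 1.31 ± 0.11 (SE), adjusted p = 1.12e-05). Pam, the enzyme that amidates peptide hormones, stood at 25.7, 25.4 and 20.2 CPM in WT and 82.5, 65 and 77.6 CPM in CMD (log2 fold change 1.72 ± 0.15 (SE), adjusted p = 1.12e-05). All 3 were higher in every CMD library than in any WT library. Ttc9 was at 5.03 (adjusted p = 2.22e-06), Aif1l at 4.23 (adjusted p = 6.06e-06), Cpne2 at 3.38 (adjusted p = 8.31e-06) and Osbpl3 at 3.53 (adjusted p = 1.12e-05).

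The CMD effect in 67 was set against that in B6 and in 87 by testing the difference of the effects, which share no libraries. Against B6, 3 of 14503 genes differed (0.0207%), all higher in 67: Sh3pxd2a, Sh3d19 and Gm32687, the last of which falls outside the rule by which genes were named. At an unadjusted p below 0.05 there were 1375 genes, and DESeq2's Wald test called 110. Sh3d19, which encodes an adaptor of ADAM proteases, stood at 10.3, 7.97 and 7.05 CPM in WT and 44.8, 29.9 and 50.4 CPM in CMD in 67. Its fitted change was 2.46 in 67 and 0.70 (adjusted p = 0.0161) in B6, a difference of 1.76 ± 0.26 (SE) (adjusted p = 0.0289). Sh3pxd2a, which encodes the podosome scaffold TKS5, stood at 89.7, 67.2 and 67.8 CPM in WT and 121, 112 and 111 CPM in CMD, with a change of 0.79 in 67 and -0.59 (adjusted p = 0.0099) in B6 and a difference of 1.38 ± 0.20 (SE) (adjusted p = 0.0289). Few analyses called these differences again. Of 12 analyses that left out 1 library of these strains, 2 called Sh3pxd2a and 1 called Sh3d19. Fgfrl1 came closest below the threshold, with a difference of 2.06 ± 0.33 (SE) and an adjusted p of 0.0641. Over all genes the count was 0 without any 1 of B6 libraries 2 to 6 or of 67 libraries 7, 8, 9, 10 and 12, 1 without B6 library 1, and 5 without CMD library 11.

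Against 87 the difference passed for 282 genes, 212 with a higher effect in 67 (1.46%) and 70 with a lower one (0.483%). Of the 212, 54 rose in 67 and fell in 87, 106 rose in 67 and were not called in 87, and 49 were not called in 67 and fell in 87. Of the 70, 60 rose in 87, and 16 fell in 67. The higher group held many matrix genes. Among the lists, 13 of 27 glycoproteins, 10 of 25 collagens, 5 of 22 basement membrane genes and 4 of 22 proteases had a higher effect in 67, as did 4 of 18 fibroblast markers and 4 of 20 macrophage markers. Without the term for sex 5 of all genes tested differed, so most of these list genes were not called in that fit. In 87 itself 12 collagens fell and 1 rose, and 8 fibroblast markers fell.

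The 8 genes with the smallest p for the difference from 87 were Sh3pxd2b, Colec12, Axl, Mmp2, Nbl1, Enpep, Fbn1 and Medag, and each was called in all 12 analyses that left out 1 library of these strains. All 12 kept the term for sex. Without that term 5 genes in all differed, so not all of the 8 were called there. Mmp2, gelatinase A, stood at 58, 40.3 and 36.5 CPM in WT and 132, 132 and 91.6 CPM in CMD in 67. Its change was 1.59 (adjusted p = 1.63e-04) in 67 and -0.45 (adjusted p = 0.108) in 87, a difference of 2.04 ± 0.29 (SE) (adjusted p = 0.010). Fbn1, fibrillin 1, the backbone of microfibrils, stood at 31.1, 14 and 20.001 CPM in WT and 40.3, 34.6 and 35.8 CPM in CMD in 67. Its change was 1.03 (adjusted p = 0.0236) in 67 and -1.89 (adjusted p = 6.75e-04) in 87, the widest difference of the 8 at 2.92 ± 0.44 (SE) (adjusted p = 0.010). Its rise within 67 was not called without WT library 8 or 9 or CMD library 10, where the adjusted p reached 0.104. Sh3pxd2b, which encodes the podosome scaffold TKS4, changed by 1.88 (adjusted p = 6.15e-05) in 67 and -0.42 (adjusted p = 0.111) in 87, a difference of 2.31 ± 0.27 (SE) (adjusted p = 0.00662). In all 8 genes the fitted change was above 0 in 67 and below 0 in 87. Axl, the receptor by which macrophages and fibroblasts take up dead cells, changed by 0.99 (adjusted p = 0.00104) in 67 and -0.75 (adjusted p = 0.00502) in 87. Axl had a difference of 1.73 ± 0.24 (SE) and an adjusted p of 0.010.

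**Figure D5:**
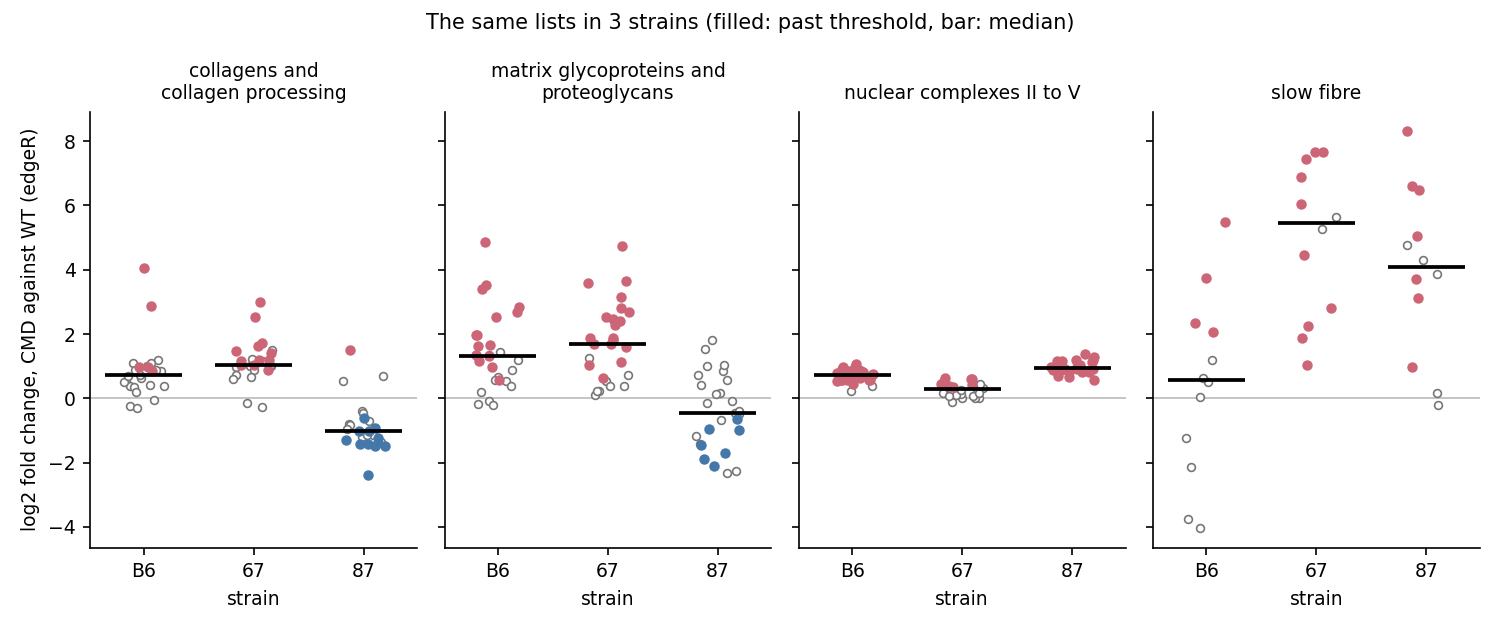
The 4 panels show the fitted log2 fold changes (CMD minus WT, vertical axis) of collagen, matrix glycoprotein, respiratory complex II to V and slow-fibre genes in B6, 67 and 87 (horizontal axis), 1 point per gene, filled where the gene passed the test, with a bar at the median. The collagen median is 1.05 in 67 and -1.02 in 87, the complex II to V median is 0.29 and 0.96, and the slow-fibre median is 0.57 in B6, 5.45 in 67 and 4.09 in 87. The test of the difference of effects called 0 of the 12 slow-fibre genes between 67 and B6. Between 67 and 87 it called 1, higher in 67.

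The count of genes that differ from 87 changed with how sex was handled and with single mice. The 87 groups hold 1 male WT and 2 male CMD mice, and so do the B6 groups. Why the count changed was not tested. Without the term for sex 5 genes differed, with female libraries only 2913 did, where 87 CMD is 1 library, and counts with 1 library left out ran from 34 without 67 WT library 9 to 751 without 87 CMD library 18. Leaving out any 1 of libraries 7 to 16 gave 34 to 106 genes, and leaving out library 17 gave 168. Without 87 CMD library 16, the only female of that group, 74 genes differed, 59 of them among the 282.

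The 3 CMD mice moved by similar amounts. Over the 1868 raised genes the median log2 ratio to the WT mean was 1.02 in library 10, 0.90 in library 11 and 0.95 in library 12. Over the 1370 lowered genes it was -0.61, -0.67 and -0.65. These genes were chosen on the same libraries, so the values describe how the mice spread and are no test. Library 10 was the highest of the CMD libraries for 38.9% of raised genes, library 12 for 35.5% and library 11 for 25.6%, and libraries 11 and 12 were the lowest for 38% and 37.1% of lowered genes.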

How the data were processed

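The members and the gene lists were chosen with earlier results of these data known. Per the labels' protocols, total RNA of left quadriceps was extracted with TRIzol and sequenced from stranded mRNA libraries as paired reads. Per the submitters' processing notes the build was GRCm39, and which aligner and counter were used is not stated there. Deposited by the authors were raw counts for each gene, as total exon reads (used here, 98% to 98.2% of them unique in 67) and unique exon reads. They also hold deposited TPM, used here only for shares of myosin genes, and deposited RPKM. Those shares were also computed from RPKM, and the RPKM shares are not given here.

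Of 25369 genes listed, 14503 were kept by filterByExpr (10 reads at least, 15 in total). Counts of the 18 libraries of B6, 67 and 87 were fitted with glmQLFit in edgeR 4.0.16 (R 4.3.3) after TMM scaling, with terms for the 6 groups and for sex as labelled, and tested with glmQLFTest. D2 was left out because 4 of its 6 sex labels go against its Y-linked reads. P-values were adjusted by Benjamini-Hochberg over all genes tested. The 51 lists hold 891 genes, 2 of which were not found. The tests were checked on simulated counts. Known fold changes were put into a small set of genes in 67 CMD, with no other difference between groups or sexes. The spread was taken from the fit itself, so the check does not cover the scaling or the weight of single libraries. The counting interval of a ratio is exact and covers counting error only.

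Genes named are Lama2, the 10 most raised and 10 most lowered (log2 CPM averaging 1 or more, groups not overlapping), the 10 with the smallest p, up to 4 called genes per list with the largest change, and the 8 with the smallest p for each strain difference. Some genes that these rules name are not reported here. Others were chosen after their values were seen. The alternatives were other sample sets, covariates, scalings, filters, unique reads, DESeq2 1.42.0, a fold threshold, and each library left out.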

Additional observations from a re-analysis of the deposited data

Results flagged for a closer look

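Against B6, Sh3pxd2a and Sh3d19 were picked out because the test of the difference between the CMD effects passed. The effect in 67 minus that in B6 was 1.377 for Sh3pxd2a and 1.758 for Sh3d19 on the log2 scale (adjusted p = 0.0289 for both, edgeR). Both genes were higher in every CMD library of 67 than in any WT library. In the 12 analyses that left out 1 library of these strains the adjusted p reached 0.168 for Sh3pxd2a and 0.204 for Sh3d19.

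Against 87, 8 genes were picked out for the same reason, all with a higher effect in 67. The effect in 67 minus that in 87 was 2.307 for Sh3pxd2b, 2.021 for Colec12, a scavenger receptor, 1.734 for Axl, 2.041 for Mmp2, 1.988 for Nbl1, a BMP antagonist, 1.884 for Enpep, an aminopeptidase, 2.921 for Fbn1 and 1.717 for Medag on the log2 scale. The adjusted p was 0.00662 for Sh3pxd2b and 0.010 for the other 7 (edgeR). Within 67 the CMD libraries lay above the WT libraries for 7 of the 8, the exception being Enpep, which overlapped. Over the 12 analyses that left out 1 library, the highest adjusted p of these 8 genes was 0.0436, without 67 WT library 9. All 12 kept the term for sex, and without that term 5 genes in all differed from 87. Differences between strains carry whatever distinguishes the mice of each group, sexes included, and the part of sex was tested only through the alternatives given below.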

How the results depend on the processing

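No gene that passed the test in 67 and is named in the text changed direction under the alternatives. Of the named genes that did not pass, the fitted change turned sign with library totals for Acta1, Atf4, Cd163, Clock, Ldb3, Myl1, Rapsn, Lamb2 and Tgfb2, with 1 library left out for Bmal1, Dmd, Lama2, Myot, Tnc, Lamb2 and Tgfb2, and without the sex term for Trim63 and Lamb2. With library totals only, 3203 genes rose and 479 fell in 67. At an absolute log2 fold change of at least 1, 311 genes fell. With 1 library of 67 left out, the raised genes ran from 1013 to 1417 and the lowered genes from 674 to 1002. Without library 16 of 87 CMD, 2416 genes rose and 1935 fell. The difference from B6 was called for 1 gene without the term for sex and with all 24 libraries under each of 3 treatments of sex (labelled, none, from Y-linked reads), for 0 with female libraries only, for 5 without library 16 of 87 CMD, for 110 in DESeq2, and for 0 to 5 with 1 library left out. The difference from 87 was called for 5 genes without the term for sex, 21 with all 24 libraries and no such term, 135 with all 24 libraries and sex from Y-linked reads, 2913 with female libraries only, 572 with library totals and 1116 in DESeq2, and for 34 to 751 with 1 library left out. The cause was not tested. No paired analysis was possible because libraries of different groups share no replicate number. With 3 mice a group, 5172 genes had an unadjusted p below 0.05 in 67, of which 3238 passed adjustment.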

Other observations

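Gm32687, a gene on chromosome 10 as Lama2 is (RefSeq, GRCm38.p6), differed between WT and CMD in 67 as it does between the parental strains, and was chosen after its values were seen. It had 0 reads in all 3 WT libraries and 252 in the CMD libraries, at least 73.03-fold more from a floor of 3 reads over the group. It stood at 2.81, 0.746 and 2.49 CPM in CMD. 1700113H08Rik, also on chromosome 10, had 1 read in WT and 43 in CMD, or 37.39 times as many after scaling (95% counting interval 6.361 to 1511). Of 181 genes whose level separates all libraries of B6 from all of D2 by more than 1 on the log2 scale without overlap (pseudocount 0.1 CPM), 120 were nearer to B6 in every library of 67, 2 were nearer to D2 in every library, and 3 (these 2 genes and Serpina1b on chromosome 12) were nearer to D2 in all WT and nearer to B6 in all CMD libraries. The reverse held for 2 genes, Frem2 on chromosome 3 and Gsap on chromosome 5, and the other 54 genes had libraries of a group on both sides. With a pseudocount of 0.5 CPM, chosen after the data were seen, the 3 became 0. The other 4 such genes on chromosome 10 (Fuca2, Phyhipl, Hal and Syt1) were nearer to B6 in both groups. A stretch of chromosome 10 that comes with the mutation and the mutation itself cannot be told apart in these groups.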
